A study of Mus musculus with 8 samples.

Results

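The genes described here are those that carry a cell through S phase and copy its DNA. They were chosen by name, as a list of 44 genes, and all 44 were found among the 17091 features of the expression table. By role, 10 act in origin licensing and 6 in activating the helicase. There are 8 subunits of DNA polymerases and primase, 7 genes of the sliding clamp, the clamp loader and replication protein A, and 2 genes that join Okazaki fragments. The remaining genes are 4 for nucleotide supply, 3 for the G1/S transition and 4 for copying chromatin and supplying histones. Every member had a normalised read count of at least 10 in each of the 8 libraries, so all 44 were among the 12107 features tested.

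The libraries came from immortalised skin fibroblasts, connective tissue cells adapted to continuous culture. WT cells were derived from C57BL/6 mice and the cells called KO from mice labelled mir210lox/lox, in which lox sites flank the gene of the hypoxia-induced microRNA miR-210. The labels name no Cre driver and do not say whether each genotype was 1 cell line or several. Both genotypes were cultured under normoxia (21% oxygen) or hypoxia (1% oxygen) for 24 hours, with 2 libraries for each of the 4 combinations. Whether replicates were grown separately or come from different animals is not labelled, so the spread between them may be technical. The Mir210 row was at the lowest possible value, 1, in all 8 libraries, so it did not check the genotype labels.

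Before DNA is copied, the origin recognition complex, Cdc6 and Cdt1 load the ring-shaped MCM2-7 helicase onto origins in G1, and S phase kinases then switch the helicase on by adding Cdc45 and the GINS complex. Polymerase alpha with primase starts each strand, polymerase epsilon extends the leading strand and polymerase delta the lagging strand, held by the clamp PCNA, while replication protein A coats the exposed single strands. Transcription of many of these genes rises at the G1/S boundary through E2F factors, and cyclin E with its kinase drives the transition. Fibroblasts in culture enter S phase as long as they cycle, and low oxygen is known to slow replication in many cell types.

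The promoters were examined for E2F-type letters. RefSeq (GRCm38.p6) gave a window from 250 bases before to 50 bases after the transcript start for 36 of the 44 genes; Ccne2, Gins1, Gins2, Gins4, Mcm4, Pole, Prim2 and Rfc2 had no entry. Both strands were searched for 4 strings. The first was TTCCCGC. The string TTCGCGC was also searched. So was the one spelled TTGCCGC here. The last was written TTGGCGC in the search, and 1 site can hold a string on each strand. At least 1 string was found in 22 of the 36 genes, or 61.1% (exact Clopper-Pearson 95% interval 43.5% to 76.9%), against 20.3% of the 8792 tested features with an entry and 10.9% of all 27025 genes in the RefSeq table. Several strings in the first listed promoter were also more common. The share with at least 2 was 25% of the members and 2.54% of the tested features with an entry. The letters CCAAT, the core of the site of the factor NF-Y, were in 61.1% of the members and 43.5% of those tested features. A match is a description of the letters and does not show that a factor binds there.

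Sequences are given for 3 genes whose values are described below, to show a promoter with many strings, one with several and one with none. Mcm6 held 5 strings, the first 109 bases before the start and the last 24 bases after it. Mcm5, the licensing gene with the highest level, held 3, between 164 and 149 bases before the start. Ccne1, which had the smallest p of the genes, held 0 strings and 0 CCAAT. Capitals mark the E2F-type strings, and each promoter is written 5′ to 3′ on the strand of the gene.
Mcm6, chr1:128359656-128359955, minus strand: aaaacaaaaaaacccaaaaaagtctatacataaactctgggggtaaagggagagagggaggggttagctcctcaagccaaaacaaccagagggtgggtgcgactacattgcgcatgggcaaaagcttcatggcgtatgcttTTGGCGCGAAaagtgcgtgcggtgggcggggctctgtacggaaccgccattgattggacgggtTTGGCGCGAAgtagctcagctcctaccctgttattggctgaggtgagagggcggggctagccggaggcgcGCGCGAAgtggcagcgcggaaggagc
Mcm5, chr8:75109259-75109558, plus strand: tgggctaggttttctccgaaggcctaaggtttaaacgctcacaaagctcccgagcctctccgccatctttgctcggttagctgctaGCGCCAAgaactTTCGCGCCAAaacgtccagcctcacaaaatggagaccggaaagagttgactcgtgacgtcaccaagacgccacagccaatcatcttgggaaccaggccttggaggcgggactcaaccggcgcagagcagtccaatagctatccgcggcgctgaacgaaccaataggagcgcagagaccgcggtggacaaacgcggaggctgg
Ccne1, chr7:38107441-38107740, minus strand: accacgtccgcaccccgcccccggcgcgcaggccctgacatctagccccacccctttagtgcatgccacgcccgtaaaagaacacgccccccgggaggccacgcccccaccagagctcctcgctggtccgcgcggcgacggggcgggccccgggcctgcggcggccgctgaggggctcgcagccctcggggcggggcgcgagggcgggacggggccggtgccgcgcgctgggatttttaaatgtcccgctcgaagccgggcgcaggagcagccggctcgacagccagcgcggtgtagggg

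All 44 genes were expressed above the median tested gene once transcript length was taken into account, and 28 of them were above the 75th percentile. On the scale of mean normalised read count per kilobase of the longest protein-coding transcript, the median over tested genes was 82.5. The highest member was Rrm1, the large subunit of ribonucleotide reductase, at 1418. The next was the helicase subunit Mcm5 at 1149.8. The lowest were E2f1 at 88.5, the origin recognition subunit Orc1 at 89.2 and the loader Cdc6 at 89.7. The subunits of the MCM2-7 ring are present once each in the ring, but their levels per kilobase ran from 412.6 (Mcm7) and 540.1 (Mcm4) to 1149.8 (Mcm5). In the GINS complex, Gins4 stood at 603.6 and the others between 142.6 (Gins3) and 197.9 (Gins1). The gap between Gins4 and Gins2 comes mostly from the transcript lengths used. Their mean values were 814.25 and 745.5, divided by 1349 and 3900 bases. Which transcript of each gene was expressed was not tested.

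**Figure D1:**
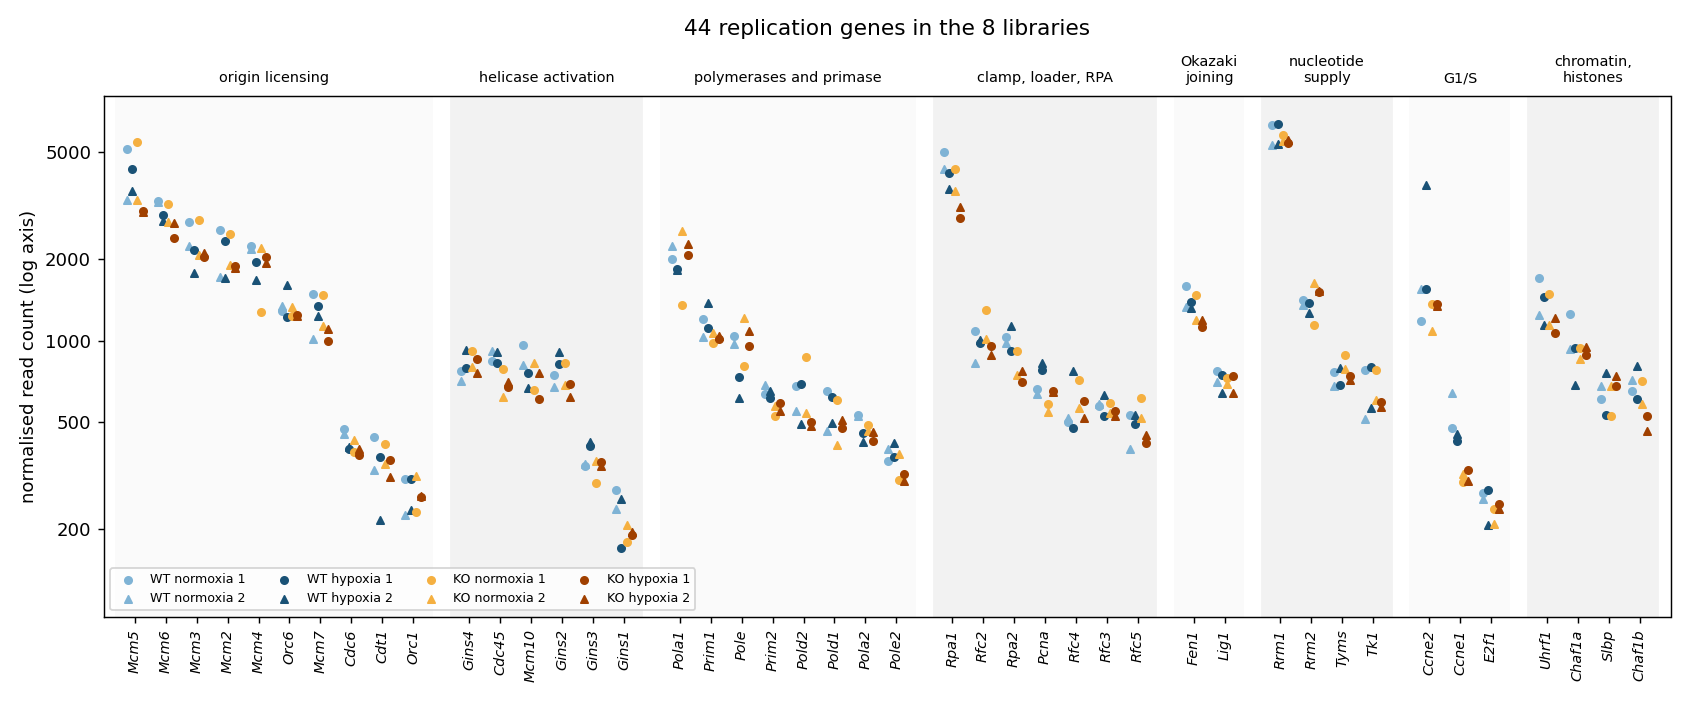
Normalised read count (log axis) of the 44 genes in the 8 libraries, ordered within each role by mean value, with colour for the group and shape for the replicate. Most genes lie within a narrow band, and Ccne2 in WT hypoxia replicate 2 stands far above its other 7 libraries.

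Across libraries the genes varied little. The ratio of the highest to the lowest library was under 2 for 41 of 44 members (93.2%), against 72.2% of the 6397 tested features with a mean value in the same range. The exceptions were Ccne2 with a ratio of 3.45, Ccne1 with 2.15 and the licensing factor Cdt1 with 2.03. The steadiest were the clamp loader subunit Rfc3 and Rrm1, both with 1.19. These values rest on many reads: the fewest behind a value of any member were an estimated 136, in KO normoxia replicate 1.

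Some facts of the libraries bear on every value below. Estimated depth ran from 6.27 M to 11.76 M reads assigned to genes. The share of the total held by small non-coding RNA was lowest, 2.65%, in WT normoxia replicate 2 and highest, 11.3%, in KO hypoxia replicate 1. Replicates of 1 group correlated at 0.954 to 0.985 over tested features, and libraries of different groups at 0.946 to 0.988, so both ranges overlapped. Libraries differed in their trend with transcript length. The log2 deviation per doubling of length was -0.144 in WT hypoxia replicate 2, -0.170 in KO normoxia replicate 1 and -0.0914 in WT hypoxia replicate 1, so these held relatively more RNA of short transcripts. Replicate 2 of KO normoxia (0.161) and of KO hypoxia (0.135) held less of it, and the trend was between -0.0214 and 0.0934 in the others. Fibroblast markers summed to 87143 to 118350 per library, while leukocyte markers summed to 11 to 33 and endothelial ones to 14 to 49. Of the 12 fibroblast markers, 9 had a mean of at least 100. The others were low: Dcn at 12 to 93, Lum at 1 to 36 and Fap at 4 to 40. Keratinocyte and epithelial markers summed to 39 to 89, with Krt1 and Krt5 at the lowest value.

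The first question was whether 1% oxygen for 24 hours altered the replication genes. No change was detected in any of the 44, in either genotype. In WT cells, 0 of 44 members passed limma's test at an adjusted p under 0.05, where 0.107% of all tested features were called higher and 0% lower. In KO cells the count was again 0 of 44, where 0.0578% of features were called higher and 0% lower. Over both genotypes together it was also 0 of 44, against 0.363% called higher and 0% lower. The number of features called depended on the model, though that of members did not. With a replicate block within genotype, 230 features passed in WT cells in place of 13, and 57 in KO cells in place of 7, while members stayed at 0. At an unadjusted p under 0.05, 1 member was higher and 1 lower in WT cells, against 4.37% and 1.96% of all features. In KO cells it was 0 either way, against 2.28% and 0.917%, and in the pooled comparison 0 either way, against 3.71% and 1.59%. Cells of both genotypes did respond to low oxygen. Slc16a3, the lactate exporter, rose by 4.69 on the log2 scale in WT and by 5.27 in KO cells, and the pH-regulating enzyme Car9 by 3.91 and 4.19. All 5 check genes of the hypoxia response (with Egln3, Bnip3 and Pdk1) passed in both genotypes, with adjusted p from limma between 0.00047 and 0.00445.

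The intervals show how much change the data leave room for. In WT cells, 38 of 44 members had a fitted hypoxia change under 1.25-fold, and 41 had a 95% interval that lay within 2-fold in both directions. The other 3 were Cdt1, Pole and Ccne2. In KO cells the counts were 39 under 1.25-fold and 42 with intervals within 2-fold, with Mcm5 and Pold2 outside. The median standard error of a log2 change was 0.23, and the adjustment over all features asks for more than a single interval does. The median hypoxia change of the members was -0.04 in WT and -0.08 in KO cells, beside -0.02 and 0.01 over all tested features. In KO cells 30 of 44 members had a change below 0, against 48.8% of all features, and in WT cells 25, against 52.1%. Over both genotypes 33 lay below 0, against 49.6%, and the median was -0.07. With the length trend of each library removed, the WT median became -0.12, beside -0.03 over all features, and 32 of 44 members lay below 0. That trend was fitted over all tested features of known length. Per doubling of length it was -0.0914 in WT hypoxia replicate 1, but 0.02 over the members alone. In KO normoxia replicate 1 it was -0.170, but -0.01 over the members. In WT hypoxia replicate 2 the members were steeper, at -0.2 against -0.144. Removing the trend may thus overcorrect or undercorrect the members, here and in the values given below.

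The second question was whether the genotypes differed. At normoxia 0 of 44 members passed, and 0% of all features were called in either direction. At hypoxia the count was again 0 of 44, with 0% of features called either way, and the difference between both hypoxia responses also gave 0 of 44 and 0%. With both oxygen levels pooled, 0 of 44 passed, where 0.0165% of features were higher and 0.00826% lower in KO cells. At an unadjusted limma p under 0.05 the KO cells had 0 members higher and 1 lower at normoxia, against 1.46% and 1.54% of all features. At hypoxia they had 1 and 1, against 4.45% and 3.06%, and in the pooled comparison 0 and 2, against 3.39% and 2.68%. For the difference of the responses the count was 0 either way, against 1.19% and 1.95%. The median KO against WT change was -0.10 at normoxia and -0.14 at hypoxia, beside -0.02 and -0.01 over all features. Of the 44 members, 32 and 34 lay below 0, against 52.3% and 51% of all features. In the pooled genotype comparison 32 lay below 0, against 52.2%, and for the difference of the responses 28, against 48.9%. These comparisons share libraries with each other and with those of oxygen, so their values are not separate evidence.

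**Figure D2:**
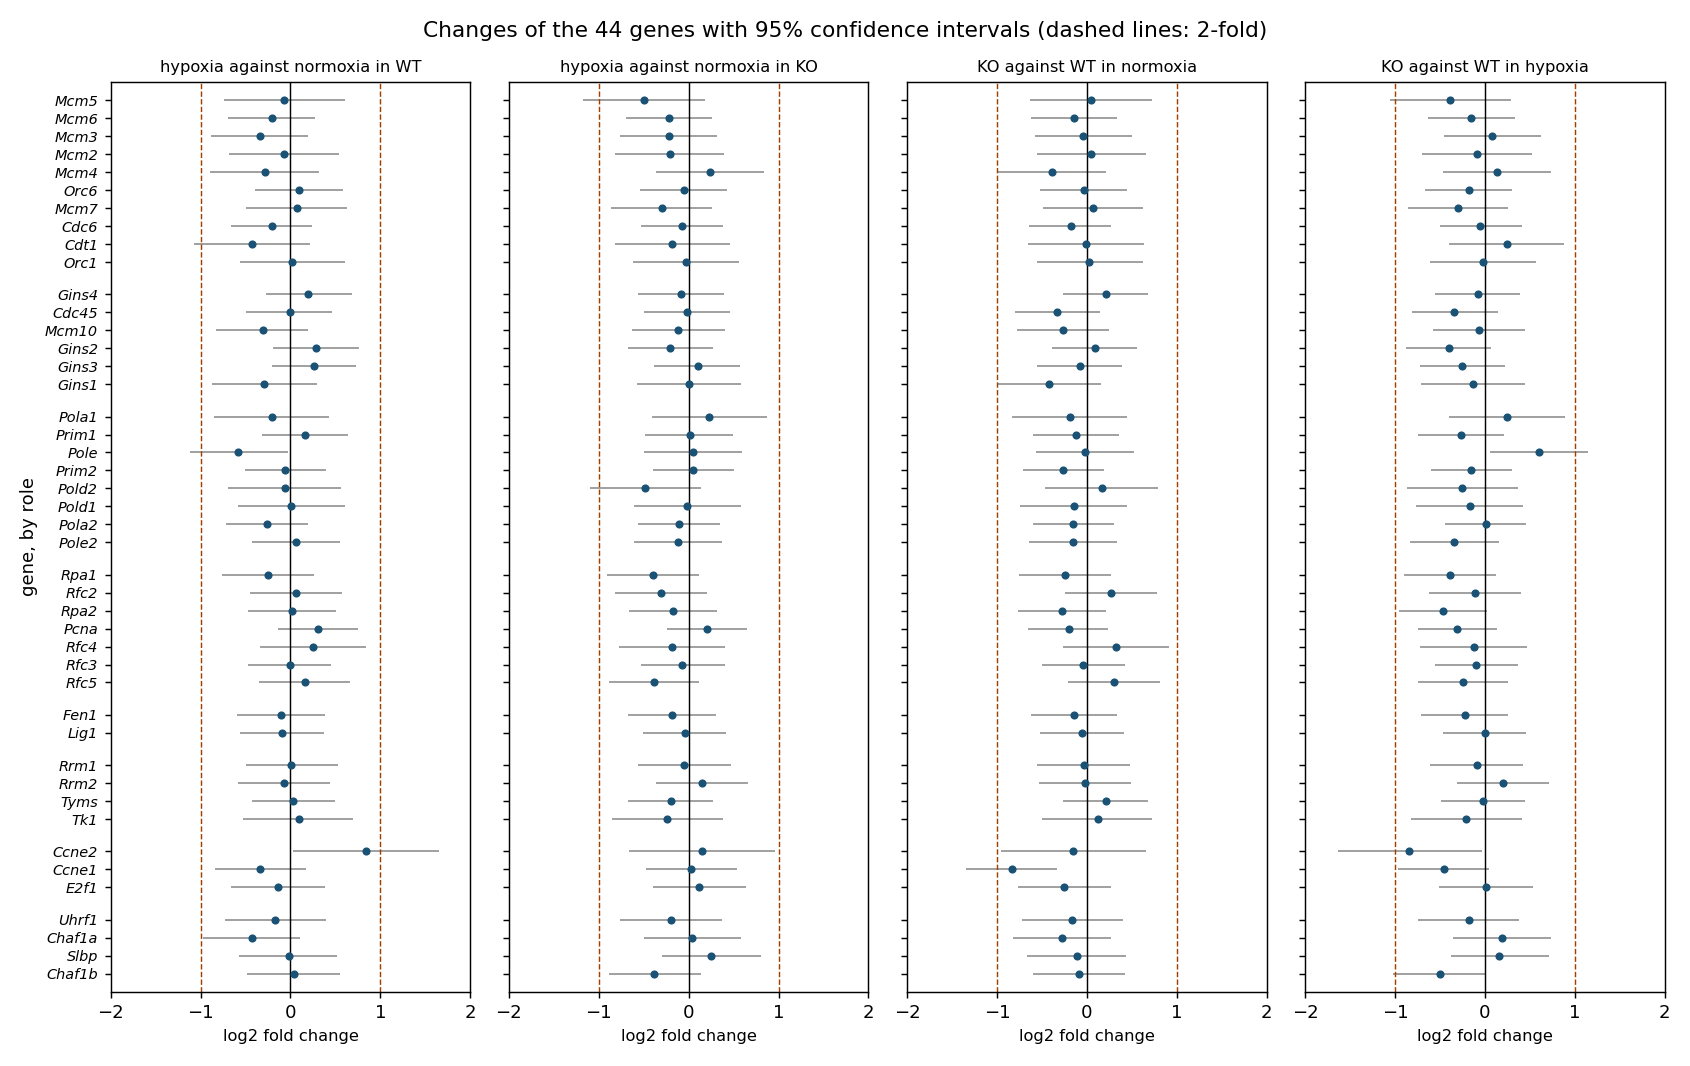
Fitted log2 changes (points) with 95% confidence intervals (lines) of the 44 genes, by role, in the 4 simple comparisons, with dashed lines at 2-fold. Ccne2 and Pole reach farthest from 0 under hypoxia in WT cells, and Ccne1 in KO cells at normoxia, and 0 of the 44 passed the adjusted test in each panel.

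The lower values in KO libraries were not a uniform shift. The members' median log2 deviation from their 8-library mean was 0.17 and 0.01 in WT normoxia replicates 1 and 2, and 0.04 and -0.02 in WT hypoxia. In KO normoxia it was 0.04 and -0.06, and in KO hypoxia -0.11 and -0.10. The highest of the 8 libraries was therefore WT normoxia replicate 1, and the lowest were both KO hypoxia libraries. The members together made up 0.722% and 0.625% of the total in WT normoxia, 0.634% and 0.599% in WT hypoxia, 0.644% and 0.621% in KO normoxia, and 0.533% and 0.596% in KO hypoxia. With small non-coding RNA left out of the total, KO hypoxia remained lowest at 0.601% and 0.618%, and WT normoxia replicate 1 highest at 0.749%. With the length trend removed, the median KO against WT change of the members was -0.11 at normoxia and -0.12 at hypoxia.

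**Figure D3:**
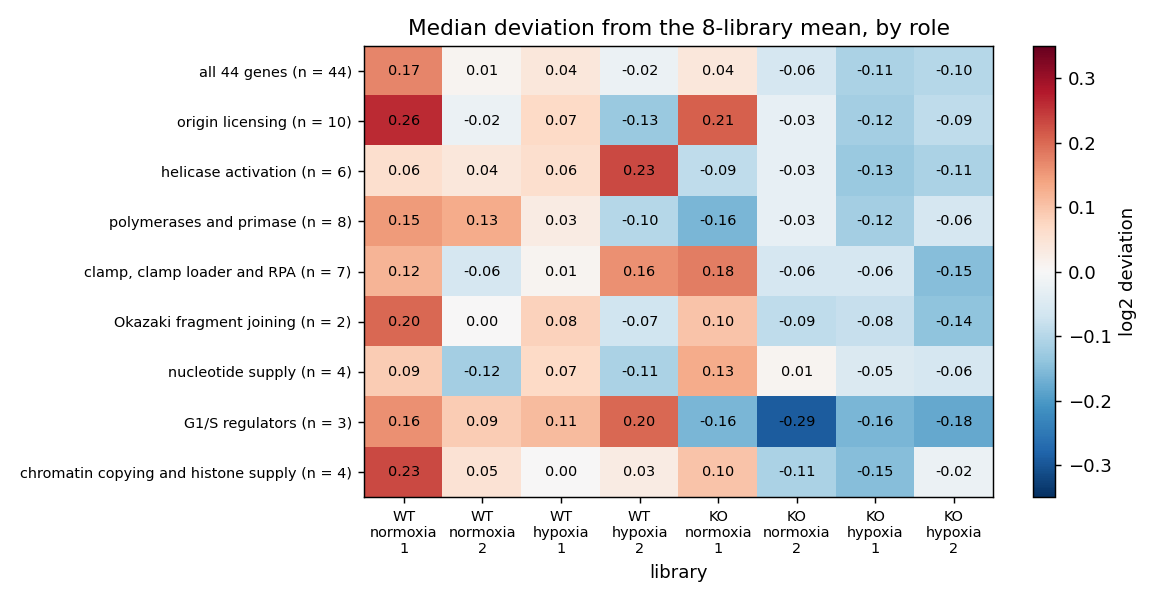
Median log2 deviation of each role's genes from their mean over the 8 libraries, by library (red above, blue below). The median of the 3 G1/S genes is above 0 in all 4 WT libraries and below 0 in all 4 KO libraries. Of these genes, only Ccne1 had no overlap between WT and KO libraries. The origin licensing median is highest in replicate 1 of both normoxia groups.

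Origin licensing genes are the ones that load the helicase. Mcm5 measured 5131 and 3302 in WT normoxia, 4321 and 3579 in WT hypoxia, 5442 and 3315 in KO normoxia, and 3010 and 2999 in KO hypoxia. Replicate 1 of both normoxia groups was far above replicate 2, by more than the groups differed. Its hypoxia change in KO cells was the lowest of any member, -0.50 ± 0.30 (SE), with a 95% interval of -1.18 to 0.18 (limma adjusted p = 0.916). The KO hypoxia values lay below both KO normoxia values. The median deviation of Mcm2 to Mcm7 was 0.31 in WT normoxia replicate 1 and 0.29 in KO normoxia replicate 1, and between -0.20 and 0.09 in the other 6 libraries. Mcm4 did not share the high value in KO normoxia replicate 1. There it had its lowest value, 1279, while the other 7 libraries ran from 1676 to 2235.

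Mcm6 was the licensing gene whose hypoxia libraries lay below its normoxia libraries in both genotypes. Its values were 3284 and 3258 in WT normoxia, 2906 and 2763 in WT hypoxia, 3214 and 2753 in KO normoxia, and 2388 and 2721 in KO hypoxia. The separation was narrow in KO cells, where 2753 and 2721 were neighbours. The log2 change was -0.21 ± 0.22 in WT and -0.22 ± 0.22 in KO cells (SE), about the size of its error. In WT cells Cdc6, Mcm3 and Mcm4 also lay lower in both hypoxia libraries without overlap, and in KO cells Mcm2, Mcm5 and Mcm7 did. Over all 44 members, 5 were higher and 10 lower without overlap under hypoxia in WT cells, against 18.9% and 19.9% of all features. In KO cells 2 were higher and 12 lower, against 15.9% and 16.3%. The 12 are 27.3% of the members.

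Of the 6 helicase activation genes, 3 were higher in both WT hypoxia libraries than in both WT normoxia libraries. Gins4 measured 772 and 709 in WT normoxia and 788 and 922 in WT hypoxia, 913 and 798 in KO normoxia, and 853 and 759 in KO hypoxia. Gins2 measured 744 and 675 in WT normoxia, 817 and 909 in WT hypoxia, 828 and 685 in KO normoxia, and 688 and 618 in KO hypoxia. The third was Gins3, and in KO cells the groups of all 3 overlapped. The log2 change of Gins2 in WT hypoxia was 0.28 ± 0.21 (SE), and its difference between the responses was -0.49 ± 0.30 (limma adjusted p = 0.857). Gins1 was lower in KO than in WT cells at normoxia, with 279 and 238 in WT against 179 and 208 in KO cells. That change was -0.42 ± 0.26 (SE, limma adjusted p = 1.0), and at hypoxia its values of 171 and 260 in WT and 191 and 195 in KO cells overlapped. Gins2 shares up to 2758 exon bases with Gse1 on the opposite strand. Gse1 itself was at 86 to 205, under all values of Gins2.

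Cdc45, which joins MCM2-7 and GINS in the active helicase, was lower in every KO library than in every WT library. It measured 837 and 914 in WT normoxia, 827 and 907 in WT hypoxia, 785 and 619 in KO normoxia, and 673 and 700 in KO hypoxia. Its oxygen change was -0.01 ± 0.22 in WT and -0.02 ± 0.22 in KO cells. The KO change over both oxygen levels was -0.33 ± 0.15 (SE), a fold of 0.795, with an interval from -0.67 to 0.01 and a limma adjusted p of 0.828. The separation of the 4 KO from the 4 WT libraries was seen in 4 members, all lower in KO cells and all named here after their values were seen. They were Cdc45, Prim2, Rpa2 and Ccne1. Of all features, 1.95% were higher and 1.7% lower in that way, so about as many in each direction.

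Pole, the catalytic subunit of polymerase epsilon, had the lowest hypoxia change of the 44 genes in WT cells. Pole measured 1037 and 967 in WT normoxia and 734 and 614 in WT hypoxia. It measured 808 and 1208 in KO normoxia and 958 and 1085 in KO hypoxia. WT hypoxia was below all other libraries, and KO normoxia was the most spread. The hypoxia change in WT cells was -0.58 ± 0.25 (SE; interval -1.12 to -0.03, limma adjusted p = 0.784). KO against WT at hypoxia gave 0.60 ± 0.25 (0.06 to 1.15, adjusted p = 0.641). The difference of the responses was 0.62 ± 0.35 (-0.15 to 1.39, adjusted p = 0.857). Pole has the longest transcript of the members, 7163 bases, and both WT hypoxia libraries and KO normoxia replicate 1 held less RNA from long transcripts, while replicate 2 of both KO groups held more. With the length trend of each library removed, its change was -0.37 under hypoxia in WT cells, 0.38 for KO against WT at hypoxia and 0.30 for the difference. Without WT hypoxia replicate 2 and KO normoxia replicate 1 the difference of the responses was 0.20.

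Pola1, the catalytic subunit of polymerase alpha, was arranged in a like way at smaller size. Its transcript is also long, 5346 bases, so, as for Pole, the length trends of the libraries bear on it. It measured 2002 and 2237 in WT normoxia, 1833 and 1831 in WT hypoxia, 1349 and 2543 in KO normoxia, and 2078 and 2271 in KO hypoxia. WT hypoxia was below WT normoxia and below KO hypoxia without overlap, and KO normoxia was again the most spread. Its log2 change was -0.21 ± 0.29 under hypoxia in WT cells and 0.25 ± 0.29 for KO against WT at hypoxia (SE), and the difference of the responses was 0.44 ± 0.41 (limma adjusted p = 0.857). Prim1, the catalytic primase subunit and the gene of this role with the highest level, measured 1199 and 1030 in WT normoxia, 1111 and 1382 in WT hypoxia, 980 and 1069 in KO normoxia, and 1012 and 1043 in KO hypoxia. Its groups overlapped except at hypoxia, where WT was above KO. Prim2, the other primase subunit, was at 614 to 683 in the 4 WT and 526 to 587 in the 4 KO libraries. Its pooled KO change was small, -0.21 ± 0.14 (SE). Pold2, an accessory subunit of polymerase delta, measured 679 and 548 in WT normoxia, 692 and 492 in WT hypoxia, 869 and 540 in KO normoxia, and 500 and 482 in KO hypoxia. The KO normoxia pair was the widest of the groups. The KO hypoxia change of -0.48 ± 0.28 (limma adjusted p = 0.916) shrank to -0.14 when KO normoxia replicate 1 was left out and grew to -0.82 when replicate 2 was. Pola2, a subunit of polymerase alpha, was at 524 to 528 in WT normoxia, 420 to 456 in WT hypoxia, 462 to 488 in KO normoxia and 425 to 458 in KO hypoxia. It was the 1 member whose 4 hypoxia libraries all lay below its 4 normoxia libraries, where 1.65% of features were, and 0 members lay above, where 2.06% did.

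Replication protein A is a trimer, and 2 of its subunits were listed. Rpa1, the largest subunit and the gene of this role with the highest level, measured 4989 and 4296 in WT normoxia, 4157 and 3622 in WT hypoxia, 4304 and 3584 in KO normoxia, and 2838 and 3108 in KO hypoxia. Both hypoxia groups were below their normoxia groups, and both KO hypoxia libraries were the lowest of the 8. The pooled hypoxia change was -0.33 ± 0.16 (SE; interval -0.69 to 0.03, limma adjusted p = 0.922), and in KO cells alone -0.40 ± 0.23. The pooled KO change was -0.31 ± 0.16. Rpa2 measured 1029 and 980 in WT normoxia, 915 and 1134 in WT hypoxia, 913 and 748 in KO normoxia, and 702 and 771 in KO hypoxia. Its WT and KO libraries did not overlap, though 915 and 913 were neighbours. The pooled KO change was -0.37 ± 0.16 (SE; -0.72 to -0.03, adjusted p = 0.78), and the pooled oxygen change -0.07 ± 0.16. No test of a difference between both subunits was run.

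Pcna, the sliding clamp, was the only member above its normoxia group under hypoxia in both genotypes without overlap, a pattern of 3.6% of all features. It measured 662 and 634 in WT normoxia, 779 and 827 in WT hypoxia, 582 and 543 in KO normoxia, and 652 and 643 in KO hypoxia. Replicates differed by little, and KO was below WT at each oxygen level. The pooled hypoxia change was 0.26 ± 0.14 (SE), a fold of 1.19, with an interval from -0.06 to 0.57 and a limma adjusted p of 0.922. The opposite pattern, below in both genotypes, was seen in Mcm6, Pola2 and Rpa1, 3 of 44 members against 3.42% of all features. KO was below WT at both oxygen levels in 6 members (Mcm6, Cdc45, Prim2, Pcna, Rpa2 and Ccne1), against 3.45% of features. KO was above WT at both in 0, against 3.46%.

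The clamp loader opens and closes PCNA on DNA. Rfc5 measured 530 and 397 in WT normoxia, 492 and 531 in WT hypoxia, 615 and 518 in KO normoxia, and 417 and 447 in KO hypoxia. The KO cells had lower values under hypoxia and the WT groups overlapped. The KO hypoxia change was -0.39 ± 0.23 and the difference of the responses -0.54 ± 0.32 (SE, limma adjusted p = 0.857). Rfc2 showed the same arrangement in KO cells, with 1294 and 1009 at normoxia and 953 and 887 at hypoxia. Rfc4 had its highest value, 772, in WT hypoxia replicate 2 and ran from 476 to 717 elsewhere. Its exons overlap Eif4a2 on the opposite strand by up to 167 bases, and Eif4a2 was also highest in that library, at 5002 against 2577 to 3907 elsewhere. Whether counting used strand is not given in the sources used here, so shared reads cannot be told apart.

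Okazaki fragments are trimmed by the flap nuclease Fen1 and sealed by the ligase Lig1. Fen1 measured 1592 and 1332 in WT normoxia, 1388 and 1320 in WT hypoxia, 1468 and 1190 in KO normoxia, and 1126 and 1194 in KO hypoxia. KO values were below WT values at hypoxia, and the groups overlapped in the other simple comparisons. Lig1 ran from 639 to 772 over all 8 libraries. Its highest to lowest ratio was 1.21.

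Deoxynucleotides come from ribonucleotide reductase, made of Rrm1 and the S phase subunit Rrm2, and thymidylate from Tyms and the salvage kinase Tk1. Rrm1 measured 6267 and 5287 in WT normoxia, 6314 and 5338 in WT hypoxia, 5786 and 5462 in KO normoxia, and 5365 and 5522 in KO hypoxia. All groups compared overlapped, and its hypoxia change was 0.01 ± 0.23 in WT and -0.05 ± 0.23 in KO cells. For Rrm1 a hypoxia change beyond -0.56 to 0.53 on the log2 scale lies outside both 95% intervals. Rrm2 ran from 1142 to 1633, with both ends in KO normoxia. Tyms (677 to 884) and Tk1 (511 to 800) were lower in KO hypoxia than in KO normoxia without overlap.

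Cyclin E activates the kinase that starts S phase, and its 2 genes had the fitted changes farthest from 0 in WT hypoxia and in both simple genotype comparisons. Ccne1 measured 475 and 642 in WT normoxia and 423 and 452 in WT hypoxia. It measured 299 and 320 in KO normoxia and 332 and 302 in KO hypoxia. The 4 KO libraries were all below the 4 WT libraries. Group means were 558.5 ± 118 and 437.5 ± 20.5 in WT and 309.5 ± 14.8 and 317 ± 21.2 in KO cells (SD, n = 2 each). The KO change at normoxia was -0.83 ± 0.23 (SE; interval -1.34 to -0.33), a fold of 0.561, with a limma unadjusted p of 0.00416 and an adjusted p of 1.0. At hypoxia it was -0.46 ± 0.23 (-0.97 to 0.04, adjusted p = 0.642). Over both oxygen levels it was -0.65 ± 0.16 (-1.01 to -0.29), with an unadjusted p of 0.00226 and a limma adjusted p of 0.394, the smallest adjusted p of any member in any of the 7 comparisons. The oxygen change of Ccne1 was -0.34 ± 0.23 in WT and 0.03 ± 0.23 in KO cells, and their difference, 0.37 ± 0.32, did not pass. The GRCm38 annotation places the Ccne1 gene on the minus strand of chromosome 7, from 38097984 to 38107534.

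Ccne2 rested on 1 library. It measured 1179 and 1545 in WT normoxia, 1555 and 3756 in WT hypoxia, 1366 and 1088 in KO normoxia, and 1362 and 1343 in KO hypoxia. WT hypoxia replicate 2 was far above the other 7 libraries, which reached at most 1555. The hypoxia change in WT cells was 0.84 ± 0.36 (SE; interval 0.03 to 1.65, limma adjusted p = 0.784). It was 0.20 without WT hypoxia replicate 2 and 1.48 without WT hypoxia replicate 1. KO against WT at hypoxia was -0.84 ± 0.36 (adjusted p = 0.642), and -0.20 or -1.47 when those libraries were left out. The pooled hypoxia change of 0.49 ± 0.26 became 0.18 or 0.81. Ints8, whose exons overlap Ccne2 by up to 201 bases on the opposite strand, was at its lowest, 766, in WT hypoxia replicate 2. In WT hypoxia replicate 2 the 8 shortest members also stood high, with a median deviation of 0.30, and the 8 longest low, at -0.09. Ccne2 itself has a transcript of 3006 bases, near the members' median of 2776. The cause of its high value was not tested. E2f1, the activating E2F factor, stayed between 208 and 279 in all 8 libraries.

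**Figure D4:**
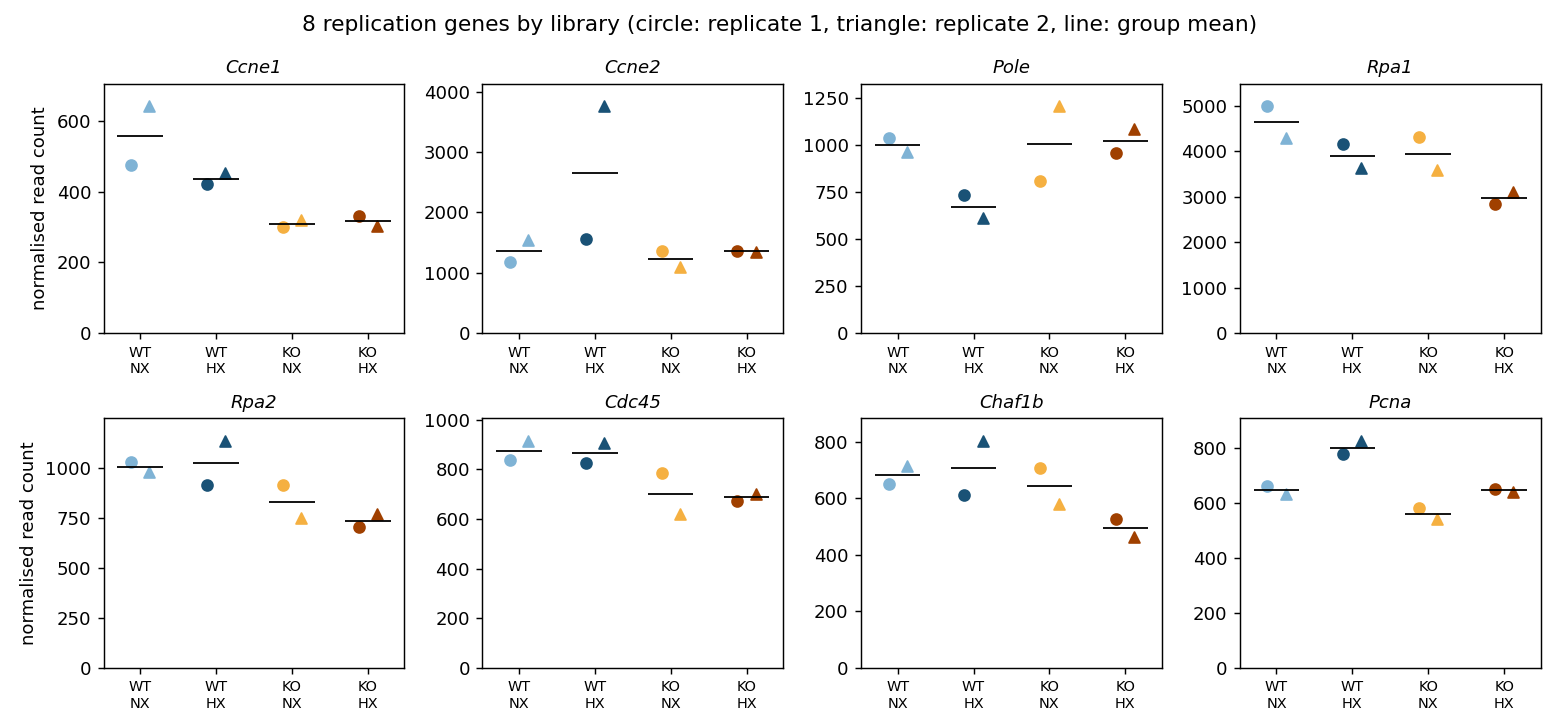
Normalised read count of 8 genes by library, with circles for replicate 1, triangles for replicate 2 and lines for group means (NX, normoxia; HX, hypoxia). Ccne1 is lower in the 4 KO libraries, Ccne2 is high in 1 WT hypoxia library, and Pcna is above normoxia in both genotypes.

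New DNA is packed into chromatin by the assembly factor subunits Chaf1a and Chaf1b, and Uhrf1 brings the maintenance methyltransferase to it. Uhrf1, which had the highest level of this role, measured 1703 and 1240 in WT normoxia, 1454 and 1144 in WT hypoxia, 1484 and 1143 in KO normoxia, and 1069 and 1210 in KO hypoxia. The groups overlapped in each simple comparison. Chaf1a measured 1258 and 930 in WT normoxia, 941 and 683 in WT hypoxia, 935 and 852 in KO normoxia, and 887 and 948 in KO hypoxia. Its WT hypoxia change of -0.43 ± 0.24 (limma adjusted p = 0.814) was -0.20 without WT hypoxia replicate 2 and -0.29 with the length trend removed. Chaf1b measured 650 and 715 in WT normoxia, 610 and 802 in WT hypoxia, 707 and 580 in KO normoxia, and 525 and 463 in KO hypoxia. KO hypoxia was below the other 6 libraries. KO against WT at hypoxia was -0.50 ± 0.23 (SE; interval -1.02 to 0.01, limma adjusted p = 0.642), and -0.31 without WT hypoxia replicate 2 or -0.70 without replicate 1. Slbp, which binds the stem loop of histone mRNA, ran from 524 to 756. Its hypoxia change in KO cells, 0.25 ± 0.25, was the highest of the 44 there.

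At each oxygen level the KO and WT groups can also be read as counts without overlap. At normoxia 3 members were higher and 10 lower in KO cells, against 10% and 11% of all features. The 10 included the G1/S genes Ccne1 and E2f1, the helicase genes Cdc45 and Gins1, and Pcna and Rpa2. At hypoxia 3 were higher and 18 lower, against 26.2% and 24.5% of all features. The 18 are 40.9% of the members. Among them were Mcm5, Mcm6 and Mcm7, Gins2 and Gins3, both primase subunits, Pcna, Rpa1 and Rpa2, Fen1, Chaf1b and both cyclin E genes, while Pola1, Pole and Rrm2 were higher. Of these, Ccne2 and Pole had an unadjusted p under 0.05, and 0 passed after adjustment.

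Wider lists of the same pathway gave the same count. The lists held 44 other replication genes, 30 other G1/S and E2F genes and 21 genes of the S phase checkpoint and fork repair, and 0 passed the adjusted limma test in each of the 7 comparisons. At an unadjusted p under 0.05, 1 of the other replication genes was higher and 2 lower under hypoxia in WT cells, against 4.37% and 1.96% of all features. The other G1/S and E2F genes gave 1 and 1, and the checkpoint and repair genes 0 and 1. In KO cells each list gave 0 either way, against 2.28% and 0.917% of all features. No list had more than 2 such genes in 1 direction of a comparison. Rpa3, the smallest subunit of replication protein A, measured 302 and 219 in WT normoxia, 445 and 578 in WT hypoxia, 388 and 266 in KO normoxia, and 363 and 302 in KO hypoxia. WT hypoxia was above all other libraries, while KO groups overlapped. Its change in WT cells was 0.98 ± 0.28 (SE; interval 0.36 to 1.59, limma adjusted p = 0.702), opposite in sign to that of Rpa1, -0.25 ± 0.23. Rpa1 has a long transcript, 5077 bases, and both WT hypoxia libraries held relatively more RNA of short transcripts. Whether length accounts for the opposite signs was not tested. Orc4, of the origin recognition complex, had its highest value in WT hypoxia replicate 2 (1469, against 659 to 980 elsewhere). Its KO against WT change was -0.72 ± 0.25 at hypoxia (limma adjusted p = 0.641) and -0.51 ± 0.17 over both oxygen levels (adjusted p = 0.682). Timeless, which protects the fork, measured 535 and 422 in WT normoxia and 346 and 264 in WT hypoxia, and its pooled hypoxia change was -0.49 ± 0.17 (limma adjusted p = 0.805).

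Among the G1/S genes, the kinase inhibitor Cdkn1b (p27) measured 795 and 763 in WT normoxia, 1060 and 1253 in WT hypoxia, 980 and 896 in KO normoxia, and 953 and 916 in KO hypoxia. It was higher under hypoxia in WT cells without overlap, by 0.56 ± 0.21 (SE, limma adjusted p = 0.767), and the KO groups overlapped. The kinase Cdk6 measured 145 and 159 in WT normoxia, 94 and 106 in WT hypoxia, 104 and 215 in KO normoxia, and 172 and 220 in KO hypoxia. Its KO against WT change at hypoxia was 0.96 ± 0.33 (adjusted p = 0.641 from limma). E2f2, an activating E2F factor, was low, at 24 to 57, with a pooled hypoxia change of -0.73 ± 0.25 (limma adjusted p = 0.814). In the checkpoint list the mismatch repair gene Msh6 measured 1919 and 1912 in WT normoxia and 1387 and 1024 in WT hypoxia, a change of -0.68 ± 0.24 (limma adjusted p = 0.767). In KO cells it ran from 1145 to 1501 over both oxygen levels. Msh6 also had the smallest p of its list for KO against WT at normoxia (-0.55 ± 0.24), for the difference of the responses (0.61 ± 0.34) and for pooled hypoxia (-0.38 ± 0.17). Cdk2, the kinase that cyclin E activates, measured 776 and 769 in WT normoxia, 672 and 631 in WT hypoxia, 620 and 627 in KO normoxia, and 665 and 642 in KO hypoxia. WT normoxia was above the other 6 libraries, and the KO change at normoxia was -0.31 ± 0.20 (limma adjusted p = 1.0). Dna2, a nuclease of Okazaki processing, differed there by -0.74 ± 0.30 (limma adjusted p = 1.0), with its lowest value, 66, in KO normoxia replicate 1. Under hypoxia in KO cells the smallest p of each list belonged to Atad2 (0.53 ± 0.32), Myc (0.62 ± 0.30) and Brca2 (0.88 ± 0.54). All 3 were lowest of the 8 libraries in KO normoxia replicate 1. E2f7, a repressing E2F factor, had a difference of the responses of 1.12 ± 0.50 and was also lowest in that library, at 136. The kinase inhibitor Cdkn1c, at 8 to 32, had a pooled KO change of 0.78 ± 0.38. The median hypoxia change of the lists was 0.02, -0.16 and -0.09 in WT cells and 0.07, 0.17 and 0.11 in KO cells, in the order named above, beside -0.02 and 0.01 over all features.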

How the data were processed

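RNA of 8 libraries was analysed. The labels' protocols name miRNeasy extraction and a New England Biolabs kit that prepares small RNA for SOLiD sequencing. The values are a score, the authors' normalised read counts as deposited (whole numbers, lowest 1). Normalization, aligner, genome build and strand use: not given in the sources used here. Depth was estimated from the spacing of low values.

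Features with at least 10 in at least 2 libraries were kept. A mean per group was fitted to log2(value + 1) over all 8 libraries with limma 3.58.1 (trend, two-sided, 10.2 moderated degrees of freedom, R 4.3.3), giving 7 comparisons, adjusted by Benjamini and Hochberg over all 12107 features (threshold 0.05). The fit was tested on simulated data. Fold changes are on the log2(value + 1) scale. Lengths and coordinates are from GENCODE (GRCm38). Replicates that carry the same number were not taken as pairs, because no label ties them.

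Values per library are given for the gene of each role with the highest level per kilobase and the 3 with the smallest p in each comparison, and values or changes for the genes of wider lists with the smallest p, of which 1 is not reported here. Other members named were chosen after their values were seen. The members and lists were chosen with earlier results of these data known. Where 12 members overlap exons of another gene on the opposite strand, shared reads cannot be told apart. Alternatives were another pseudocount, filter or scaling, removal of length trends, a replicate block and leaving out libraries.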

Additional observations from a re-analysis of the deposited data

How the results depend on the processing

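Over 127 alternative fits of the 7 comparisons, 0 members passed in each. The smallest adjusted p of any member from limma was 0.0642, for KO hypoxia without KO normoxia replicate 2, which leaves that arm with 1 library assumed to vary like the other groups. With the replicate number as a block, over all groups or within each genotype, 0 members were called, and the smallest adjusted p from limma was 0.0809 (Ccne2, WT hypoxia, block within genotype). The correlation of replicate differences between groups was 0.57 for WT normoxia and WT hypoxia, 0.23 for both KO groups and between -0.11 and 0.11 otherwise. Of 381 alternative values for 21 gene and comparison pairs, 0 changed sign. The pairs were picked for the smallest p in these same data, so an unchanged sign was likely beforehand. Leaving out a library of a group that is not compared also cannot alter a simple change. The median WT hypoxia change of members was 0.01 without WT normoxia replicate 1 and -0.15 without replicate 2, and that of the difference of responses -0.14 and 0.02. Without the same libraries, in that order, the median KO against WT change at normoxia was -0.03 and -0.19. The Ccne1 change at normoxia ran from -1.05 to -0.62. With 2 libraries per group the median standard error of 0.23 limits what could be detected.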

Other observations

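Some pairs of replication genes had an extreme ratio in KO normoxia replicate 1, and both pairs given were chosen after their values were seen. The ratio of Mcm5 to Mcm4, both subunits of the MCM2-7 ring with transcripts of 3381 and 3589 bases, was 4.25 there and between 1.48 and 2.30 in the other 7 libraries. The ratio of Pola1 to Pold2, the catalytic subunit of polymerase alpha and a subunit of polymerase delta, was 1.55 there and between 2.65 and 4.71 elsewhere. Their transcripts differ in length, 5346 against 1646 bases. The checkpoint list showed the same library apart: the repair gene Brca2 measured 160 there and 383 to 777 in the others, and the checkpoint kinase Atr 898 there and 1244 to 1811 in the others. The cause was not tested.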
